A study of Macaca mulatta with 12 samples.

Results

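C/D box small nucleolar RNAs (snoRNAs) were measured in liver biopsies of rhesus macaques before and after a period of ethanol intake. They were taken as every Ensembl gene identifier of the deposited transcript table whose symbol is SNORD followed by a number, and each identifier was kept as its own member. This gave 142 members of 23993 identifiers, under 120 symbols. Of these symbols, 13 stood on several identifiers and covered 35 members. The levels of such members (SNORD14, SNORD36, SNORD58, SNORD115 and SNORD116 among them) are uncertain, because the counting could split reads between identifiers of like sequence. How alike their sequences are was not checked. Each member had 1 transcript in the table, and lengths ran from 63 to 237 bases with a median of 77 bases.

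C/D box snoRNAs are short nuclear RNAs named after the conserved C and D motifs near their ends. Most base-pair with ribosomal RNA and guide fibrillarin, the methyltransferase of the particle, to the ribose that it methylates, while a few (SNORD13, SNORD14, SNORD22) take part in cutting or modifying the precursor of ribosomal RNA. In mammals most are cut out of introns of host genes, often genes for ribosomal proteins or nucleolar proteins, and are protected in a particle with NOP56, NOP58 and SNU13. Hepatocytes secrete much protein and make many ribosomes, for which these RNAs are needed.

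The livers came from 6 male animals of about 4.6 years, 3 later classed as light drinkers (LD) and 3 as very heavy drinkers (VHD). In the induction all 6 animals took the same ethanol doses for 90 days, 0.5, then 1, then 1.5 g per kg of body weight per day with 30 days at each dose. The class was given by intake after a further 12 months of free access, 1.5 g per kg per day in LD and 4 g per kg per day in VHD, so it names later drinking. The 4 groups were LD baseline, VHD baseline, LD post-induction and VHD post-induction, with 3 libraries each, and animal 1, 2 or 3 of a class gave 1 library at each time. Ethanol in the post-induction groups goes with 90 days of passing time, and no animals kept without ethanol over the same time were analysed here. Libraries were made from 500 ng of total RNA with a combined mRNA and miRNA kit and read as 76 bases, so that 68 of the 142 members are no longer than a read.

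Library totals ran from 5970033 to 25060718 transcript counts. Between 134 and 141 of the members had a count in each library. The summed level of 7 hepatocyte markers ran from 130070 to 249323 CPM, the count scaled to a common library size with TMM factors. Sums were far lower for 10 leukocyte markers (96.6 to 344 CPM), 4 erythrocyte markers (4.35 to 14 CPM), 7 stellate and fibroblast markers (79.3 to 227 CPM), 4 cholangiocyte markers (23.1 to 84.3 CPM) and 5 sinusoidal endothelial markers (77.1 to 196 CPM). Earlier results of these data had set 2 libraries apart, VHD baseline 3 and VHD post-induction 2, and the median of each comparison and the counts of each gene group are given with and without them. VHD baseline 3 had the highest leukocyte sum (344 CPM) and the lowest stellate and fibroblast sum (79.3 CPM) of the 12. VHD post-induction 2 had 126 and 105 CPM, inside the range of the others. The part of cell makeup in the results was not tested, and in bulk tissue fewer cells of a type and less RNA per cell cannot be told apart.

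C/D snoRNAs took a large share of the libraries, and the share varied more between animals than between groups. Before the induction it was 8.3, 7.23 and 12.2% of transcript counts in LD baseline 1, 2 and 3, and 6.92, 10.8 and 8.35% in VHD baseline 1, 2 and 3. After it the share was 6.27, 13.6 and 17.2% in LD and 6.24, 5.9 and 16.4% in VHD. The highest shares were all post-induction (LD 2, LD 3 and VHD 3), but so were the 3 lowest. As means ± SD over 3 libraries, LD went from 9.24 ± 2.62% to 12.4 ± 5.57% and VHD from 8.69 ± 1.96% to 9.51 ± 5.97%, and the ranges of all 4 groups overlapped. Without the 2 libraries set apart, the VHD means over the 2 libraries left were 8.86 ± 2.74% and 11.3 ± 7.18%. H/ACA snoRNAs, the other class of guide RNAs in the nucleolus, took 0.0687 to 0.191% of counts on 93 identifiers.

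**Figure D1:**
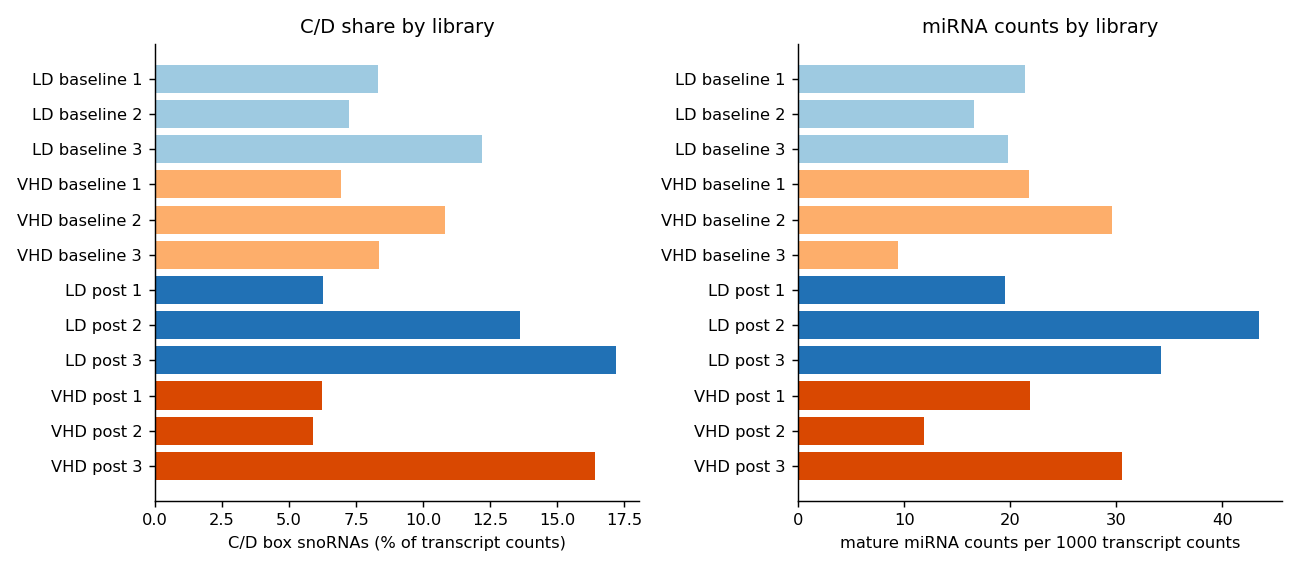
Left, share of transcript counts taken by the 142 C/D snoRNAs in each of the 12 libraries (percent); right, mature miRNA counts per 1000 transcript counts in the same libraries. Bars are single libraries, coloured by group. The share is highest in LD post-induction 3 (17.2%) and lowest in VHD post-induction 2 (5.9%), and miRNA is highest in LD post-induction 2 (43.5 per 1000) and lowest in VHD baseline 3 (9.39 per 1000).

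The miRNA content of the libraries moved partly with the C/D share. The 3 libraries with the highest share had 43.5 (LD post-induction 2), 34.2 (LD post-induction 3) and 30.5 (VHD post-induction 3) mature miRNA counts per 1000 transcript counts, and these were the 3 highest values of the 12. VHD baseline 3 and VHD post-induction 2 had the 2 lowest values, 9.39 and 11.9. The other 7 libraries had 16.6 to 29.6. The recovery of small RNA in library preparation was not measured separately, and its part in the C/D levels was not tested.

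A few snoRNAs held most of the counts. The 8 with the highest mean CPM made up 50.2% of the summed C/D level, and the first 30 made up 83.6%. By mean over the 12 libraries, 26 members lay above 1000 CPM, 46 between 100 and 1000, 46 between 10 and 100, and 24 at 10 CPM or less. The same 8 members also led when the level was divided by length.

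SNORD82 (ENSMMUG00000023828) stood first. It lies within NCL, the gene of the nucleolar protein nucleolin, on chromosome 12 from 113951892 to 113951962 of build Mmul_8.0.1 (minus strand). Its mean level was 12623 CPM per 100 bases. In LD it had 6506, 6983 and 14044 CPM at baseline and 6096, 9911 and 15361 CPM post-induction. In VHD it had 6423, 7451 and 8445 CPM at baseline and 4943, 6683 and 13190 CPM post-induction. The 4 groups overlapped, and the 12 values lay within 3.11-fold.

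SNORD102 (chromosome 17, 6833444 to 6833517) followed with 11882 CPM per 100 bases and a range of 2.75-fold over the libraries. SNORD29 had 11356, SNORD31 had 8654, SNORD26 had 5635 and SNORD30 had 4821 CPM per 100 bases. These 4 are neighbours on chromosome 14 (11445859 to 11447898), in the order known from the introns of SNHG1, a gene whose spliced RNA codes for no protein. SNORD101 (7867 CPM per 100 bases) lies in RPS12, the gene of a small-subunit ribosomal protein, on chromosome 4 from 134643712 to 134643785. SNORD71 (6260 CPM per 100 bases) lies in AP1G1, the gene of an adaptor protein of vesicle transport, on chromosome 20 from 55946123 to 55946209. In this order of 8, each mean lay inside the range of its neighbours over the libraries.

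**Figure D2:**
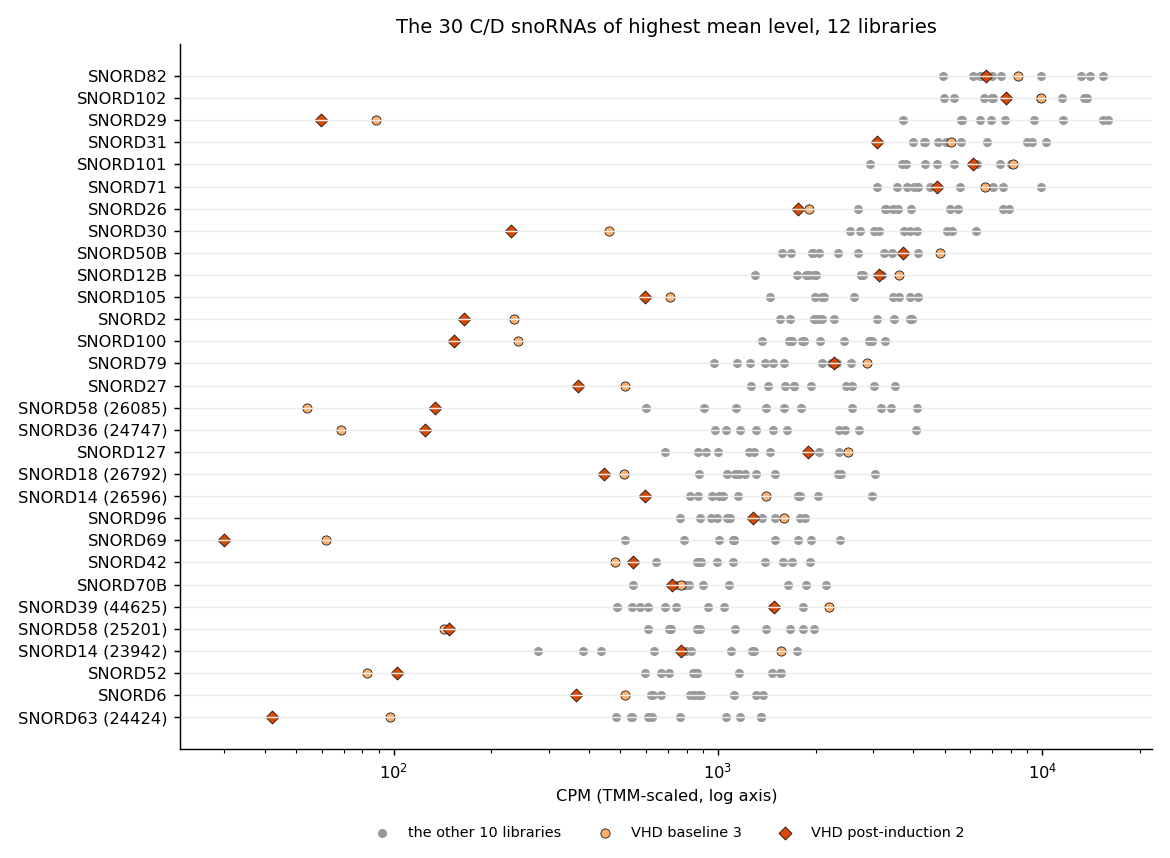
Levels of the 30 C/D snoRNAs with the highest mean, in CPM on a log axis, 1 point per library; numbers in brackets are the last digits of the identifier where a symbol stands on several. In VHD baseline 3 and VHD post-induction 2 (coloured points) SNORD29 stands at 87.9 and 59.4 CPM against 3708 CPM or more in the other 10 libraries, while SNORD82 and SNORD102 lie among the others.

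The pattern of SNORD82 over the 12 libraries was most like that of SNORD71 (Spearman rho 0.96), SNORD102 (0.95) and SNORD14 (ENSMMUG00000023942, 0.94). These are correlations of log2 CPM over 12 libraries that share depth and scaling within a library, and they are given as a description.

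In VHD baseline 3 and VHD post-induction 2, some of the most abundant snoRNAs were far lower while others were at the level of the other libraries. SNORD29 had 6940, 3708 and 9412 CPM in LD baseline, 5607, 11622 and 15978 in LD post-induction, 6418, 7672 and 87.9 in VHD baseline, and 5665, 59.4 and 15410 in VHD post-induction. The lowest of the other 10 libraries was 42.2-fold above the higher of these 2. SNORD98, which lies in CCAR1, showed the same: 1.56 and 0.493 CPM (42 and 9 counts) against 55.3 to 185 CPM in the other 10 libraries, a gap of 35.5-fold. SNORD5, SNORD19B and SNORD43 had gaps of 12.5-fold, 11.4-fold and 10.7-fold. The 2 libraries come from different animals at different times, and the other library of each animal (VHD post-induction 3 and VHD baseline 2) was not low.

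In all, these 2 libraries were the 2 lowest of the 12 for 63 of the 134 members that passed the filter on low counts (47%). The same held for 7.77% of all 18373 genes tested and for 12.5% of the 72 H/ACA snoRNAs tested. The gap to the other 10 libraries was over 2-fold for 41 of the 63, over 5-fold for 16 and over 10-fold for 5. They were the 2 highest for 3 members (SNORD66, SNORD14 on ENSMMUG00000025057, and SNORD11), or 2.24%, against 8.53% of all genes. The 2 libraries were chosen by earlier results over all genes, so these counts describe them and carry no test.

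Low and unaffected members stood side by side in the same host. RPS12 carries SNORD100 and SNORD101 in the same orientation. SNORD100 had 241 and 153 CPM in the 2 libraries against 1368 to 3278 CPM in the others, while SNORD101 had 8100 and 6127 CPM against 2939 to 8045 CPM. The ratio of SNORD100 to SNORD101, which does not depend on the scaling of a library, was 0.0298 and 0.0249 there and 0.317 to 0.542 in the other 10. On chromosome 14 the ratio of SNORD29 to SNORD31 was 0.0168 and 0.0192 against 0.735 to 1.78, and that of SNORD30 to SNORD31 was 0.0879 and 0.0742 against 0.441 to 0.785. In the imprinted DLK1-DIO3 region of chromosome 7, SNORD113-8 to SNORD113-7 was 0.0678 and 0.0761 against 0.829 to 1.21.

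**Figure D3:**
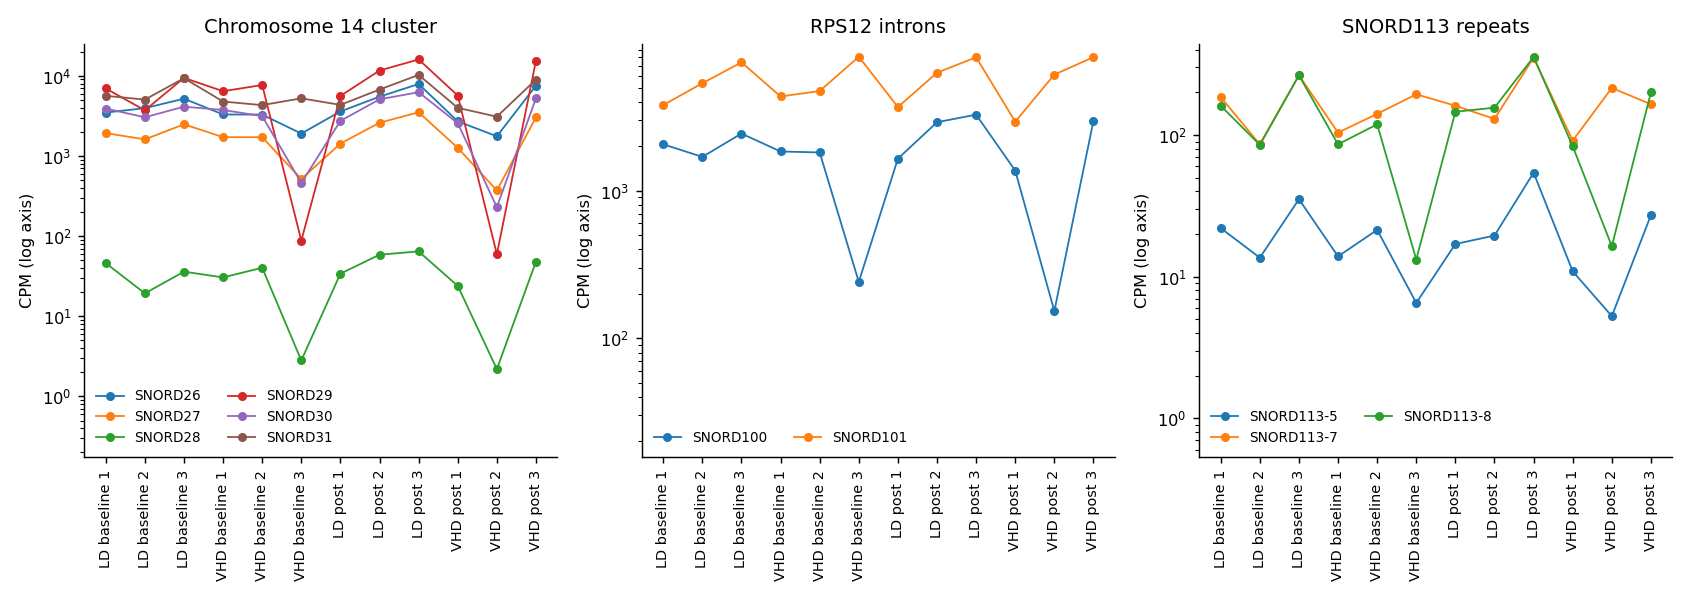
Levels of neighbouring C/D snoRNAs (CPM, log axis) over the 12 libraries; lines only join the points of a snoRNA and mark no order in time. VHD baseline 3 and VHD post-induction 2 part SNORD29, SNORD30 and SNORD28 from SNORD31, SNORD100 from SNORD101, and SNORD113-8 from SNORD113-7.

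Of the 23 hosts with at least 2 tested members, 10 held both members that were lowest in the 2 libraries and members that were not, 6 held only the first kind and 7 only the second. The host genes themselves were the lowest in the 2 libraries for 6 of 46 and the highest for 6, against 7.77% and 8.53% of all genes tested. Members of at most 76 bases, the read length, were lowest in the 2 libraries in 44 of 66 (66.7%), and longer members in 19 of 68 (27.9%). The median length was 72 bases for the members lowest there and 82 bases for tested members that were neither lowest nor highest. SNORD101 (73 bases) and SNORD82 (70 bases) are short members that kept their level, and SNORD19B (84 bases) is a longer member that did not. Why the members differed was not tested. The median SD of log2 CPM over all libraries was 0.73 for the 134 members and 0.59 for all genes tested, and over the 10 libraries without these 2 it was 0.54 for both.

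Other members had library patterns of their own. SNORD49B had 1183 CPM in LD baseline 3, 1450 in LD post-induction 3 and 1068 in VHD post-induction 3, 47.4 and 38.6 in the 2 libraries set apart, and 261 to 465 in the other 7. SNORD125, in AP1B1, had its highest levels in LD baseline 3 (1046 CPM), VHD baseline 3 (875 CPM) and VHD post-induction 2 (862 CPM) and its lowest in VHD post-induction 1 (70.1 CPM). SNORD115 (ENSMMUG00000024201), of a family studied mainly in brain, had its highest levels in both libraries of animal LD 3, 66.8 CPM at baseline and 93.5 CPM post-induction, with 11.6 to 51 CPM in the other 10 libraries.

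No C/D snoRNA passed the test in any of the 6 comparisons (edgeR quasi-likelihood test over 18373 genes, Benjamini-Hochberg adjusted p under 0.05), and DESeq2 also called none. Among members, 8 were not tested because their counts were too low, the highest of them at a mean of 0.466 CPM. The members moved together within a library, mostly in the same direction as the C/D share, so the counts of positive and negative values below are not counts of independent changes. The comparisons also share libraries, and a sign that recurs between them is not independent. The signs also depend on the scaling. With factors computed over small RNA genes only, the medians of the C/D members came to between -0.09 and 0.01 in the 6 comparisons. The median of all genes then moved to between -0.14 and 0.61. The small RNA genes include the C/D members themselves, so member medians this small follow from the choice of genes and carry no test. Which scaling is closer to the true levels was not tested. With TMM factors over all genes, the median of the 72 tested H/ACA snoRNAs (VHD over LD) was 0.02 at baseline and -0.30 post-induction. Their median change after the induction was 0.27 in LD, -0.11 in VHD and 0.13 over both classes. Their difference (VHD response minus LD response) had a median of -0.40, with 60 of 72 negative.

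Before any ethanol, no C/D snoRNA was shown to differ between VHD and LD livers beyond the spread between animals. The log2 fold change (VHD over LD) was negative for 103 and positive for 31 members with a median of -0.31, while all genes had a median of 0.07. None of the members and 0.00544% of all genes passed. At an unadjusted p under 0.05 the share was 0 of the members and 1.86% of all genes. Factors over small RNA genes gave 69 negative and 65 positive members. The median was -0.22 without the 2 libraries set apart and -0.12, with 83 negative and 51 positive members, without LD baseline 3.

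The smallest unadjusted p at baseline, 0.0654 in edgeR, belonged to SNORD72 (chromosome 6, 41393882 to 41393962). Its log2 fold change was 1.12 ± 0.56 (SE), with an adjusted p of 0.9998. It had 9.34, 8.79 and 13.9 CPM in LD and 9.21, 47.7 and 12.7 CPM in VHD, so that VHD baseline 2 alone stood above the LD range. SNORD60 (0.59 ± 0.47) and SNORD88A (0.50 ± 0.49) were the next positive members. SNORD88A turned to -0.25 without VHD baseline 3. The leading negative members were SNORD83B in RPL3 (-0.95 ± 0.49), SNORD42 in RPL23A (-0.76 ± 0.47) and SNORD38B (-1.23 ± 0.78). RPL3 and RPL23A are genes of ribosomal proteins. SNORD42 had 1111, 992 and 1690 CPM in LD and 883, 874 and 480 CPM in VHD, without overlap, and its adjusted p was 0.9998.

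After the induction the VHD levels were lower than LD for nearly all members in value, with no member past the threshold. The log2 fold change was negative for 126 of 134 members with a median of -0.57, against -0.01 for all genes. None of the members and 0% of all genes passed, and at an unadjusted p under 0.05 there were 2 members (1.49%) against 2.44% of all genes. Factors over small RNA genes gave 79 negative and 55 positive members. The median was -0.28 without the 2 libraries set apart, -0.27 without VHD post-induction 2 alone and -0.25 without LD post-induction 3. It was -1.17 without VHD post-induction 3, the VHD library with the high C/D share, and the smallest adjusted p of a member was then 0.97 in edgeR.

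The 2 members were SNORD8 in CHD8, the gene of a chromatin remodeller, and SNORD111 in SF3B3, the gene of a splicing factor. SNORD8 (chromosome 7, 82644802 to 82644912) had 21.9, 45.4 and 38.3 CPM in LD and 15.2, 11.5 and 28.7 CPM in VHD. The highest VHD value lay above the lowest LD value. Its log2 fold change was -0.93 ± 0.37, with an unadjusted p of 0.0264 in edgeR and an adjusted p of 0.9994. SNORD111 (chromosome 20, 54745365 to 54745456) had 113, 150 and 214 CPM in LD and 73.3, 54.8 and 129 CPM in VHD. Its log2 fold change was -0.89 ± 0.41 (unadjusted p of 0.0484, adjusted p of 0.9994 in edgeR). SNORD114-13, of the DLK1-DIO3 region, came next with -1.29 ± 0.69. On the positive side SNORD126 in CCNB1IP1 (0.66 ± 0.62), SNORD11 in NOP58 (0.46 ± 0.58) and SNORD14 on ENSMMUG00000025057 in RPS13 (0.38 ± 0.57) led. SNORD126 rested on VHD post-induction 3 (82.7 CPM, with 9.25 to 24.9 CPM in the other 5 post-induction libraries) and was -0.87 without it. SNORD11 was -0.07 without VHD post-induction 2.

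In LD animals, most C/D snoRNAs were higher in value in the fit after the induction, and the size rested on single libraries. The log2 fold change was positive for 125 of 134 members with a median of 0.33, against 0.08 for all genes. None of the members and 0% of all genes passed the threshold, and at an unadjusted p under 0.05 there was 1 member (0.746%) against 5.7% of all genes. The animals did not agree in direction. The median change of the members was -0.22 in LD 1 (106 of 134 lower), 0.68 in LD 2 (127 higher) and 0.40 in LD 3 (121 higher). Factors over small RNA genes gave 71 positive and 63 negative members, and without the 2 libraries set apart, which are both VHD, the median was 0.29. With single LD libraries left out it was 0.16 (baseline 2), 0.59 (baseline 3), 0.58 (post-induction 1) and 0.03 (post-induction 3).

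The summed hepatocyte and stellate markers changed in the opposite direction to the C/D median in each of the 3 LD animals. The hepatocyte sum went from 215445 to 249323 CPM in LD 1, where the C/D median was lower, from 243498 to 175339 in LD 2 and from 209079 to 180002 in LD 3, where it was higher. The stellate and fibroblast sum went from 149 to 227, from 141 to 94.1 and from 175 to 109 CPM. In VHD the hepatocyte sum went from 245464 to 212726 in VHD 1, from 130070 to 157186 in VHD 2 and from 153584 to 142380 in VHD 3, opposite to the C/D median in VHD 2 and VHD 3 but not in VHD 1. The stellate and fibroblast sum in VHD went from 184 to 127, from 177 to 105 and from 79.3 to 111 CPM, in the same direction as the C/D median in all 3 animals. The other marker sums did not share the LD pattern. The leukocyte sum in LD 1, LD 2 and LD 3 went from 180 to 131, from 96.6 to 101 and from 233 to 232 CPM. The cholangiocyte sum rose in all 3, and the erythrocyte sum changed in the same direction as the C/D median in all 3. The sinusoidal endothelial sum went with the C/D median in LD 2 and opposite to it in LD 1 and LD 3. The part of these shifts in the C/D levels was not tested.

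The member with the smallest p was SNORD53, which lies with SNORD92 and SNORD53B in WDR43, the gene of a protein of the small-subunit precursor (SNORD53 on chromosome 13, 29239510 to 29239588). SNORD53 had 14.2, 7.27 and 12.7 CPM in LD at baseline and 10, 41.1 and 42.4 CPM post-induction. LD 2 and LD 3 were higher after the induction and LD 1 was lower. The log2 fold change was 1.45 ± 0.59 (unadjusted p of 0.0288, adjusted p of 0.856 in edgeR). SNORD92 followed with 0.97 ± 0.59, from 4.84, 5.06 and 8.55 CPM to 4.93, 14.5 and 17.2 CPM, and SNORD35A in RPL13A with 0.73 ± 0.41. Of the 9 negative members, SNORD125 had the smallest p (-0.97 ± 0.73) and was lower in all 3 LD animals, from 775, 611 and 1046 CPM to 555, 211 and 474 CPM. SNORD11 (-0.26 ± 0.60) and SNORD126 (-0.17 ± 0.62) came next.

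The 3 livers of VHD animals did not all go in the same direction. The median change of the members was -0.38 in VHD 1 (118 of 134 lower), -1.24 in VHD 2 (102 lower) and 1.22 in VHD 3 (110 higher). The libraries set apart are the later one of VHD 2 and the earlier one of VHD 3. In the fit, 89 members were positive and 45 negative with a median of 0.10, against 0.03 for all genes. None of the members and 0% of all genes passed, and at an unadjusted p under 0.05 there were 0 members against 3.44% of all genes. Factors over small RNA genes gave 50 positive and 84 negative members with a median of -0.05. The median was 0.25 without the 2 libraries and -0.06 with a term that pairs the libraries of an animal (47 positive, 87 negative). Without single VHD libraries it was 0.22 (baseline 2), 0.03 (baseline 3), 0.28 (post-induction 1), 0.41 (post-induction 2) and -0.55 (post-induction 3).

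SNORD72 again had the smallest p in VHD (-1.12 ± 0.56, unadjusted p of 0.0649 and adjusted p of 0.9999 in edgeR). It went from 9.21, 47.7 and 12.7 CPM to 7.73, 11.1 and 13.2 CPM, and the same library, VHD baseline 2, carried the value. SNORD8 (-0.40 ± 0.37) and SNORD13 (-0.48 ± 0.65) were the next negative members. The leading positive members were SNORD36 on ENSMMUG00000044156 (2.14 ± 1.55), SNORD15 on ENSMMUG00000026536 in RPS3 (0.46 ± 0.41) and SNORD95 in RACK1 (0.64 ± 0.60). All 3 turned negative without VHD post-induction 3, to -2.74, -0.24 and -0.32. This SNORD36 copy had at most 4.98 CPM in any library and none in 2 of them.

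Over both classes, 116 of the 134 members had a positive mean response with a median of 0.23, against 0.07 for all genes. None of the members and 0.267% of all genes passed, and at an unadjusted p under 0.05 there was 1 member (0.746%) against 7.91% of all genes. The member was SNORD53, with 1.00 ± 0.42 (unadjusted p of 0.0308, adjusted p of 0.553 in edgeR). Its VHD levels were 12, 20.8 and 8.29 CPM at baseline and 21.2, 7.67 and 31.3 CPM post-induction, and 4 of the 6 animals were higher after the induction. SNORD92 (0.75 ± 0.42) was higher in 5 of 6 and SNORD35A (0.48 ± 0.29) in 3 of 6. The leading negative members were SNORD125 (-0.66 ± 0.52), SNORD72 (-0.43 ± 0.39, but 0.08 without VHD baseline 2) and SNORD13 (-0.26 ± 0.46). Factors over small RNA genes gave 61 positive and 73 negative members with a median of -0.03. The median was 0.28 without the 2 libraries set apart and 0.11 with a term that pairs the libraries of an animal (102 positive, 32 negative). With single libraries left out it was 0.15 (LD baseline 2), 0.35 (LD baseline 3, and likewise LD post-induction 1), 0.07 (LD post-induction 3), 0.38 (VHD post-induction 2) and -0.11 (VHD post-induction 3).

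The responses of the classes were not shown to differ for any C/D snoRNA. The difference (VHD response minus LD response) was negative for 104 and positive for 30 members with a median of -0.22, against -0.05 for all genes. None of the members and 0% of all genes passed, and at an unadjusted p under 0.05 there were 0 members against 1.3% of all genes. Factors over small RNA genes gave 73 negative and 61 positive members. The median was -0.01 without the 2 libraries set apart and -0.36 with a term that pairs the libraries of an animal (6 positive, 128 negative). Leaving out single libraries moved it between -0.92, with VHD post-induction 3 left out, and 0.10, with LD post-induction 3 left out. SNORD72 (-1.38 ± 0.78), SNORD8 (-0.88 ± 0.52) and SNORD7 (-0.82 ± 0.74) were the leading negative members and SNORD125 (0.63 ± 1.03), SNORD36 on ENSMMUG00000044156 (1.04 ± 2.10) and SNORD126 (0.36 ± 0.88) the leading positive ones. The adjusted p was 1 for each of these 6 in edgeR.

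**Figure D4:**
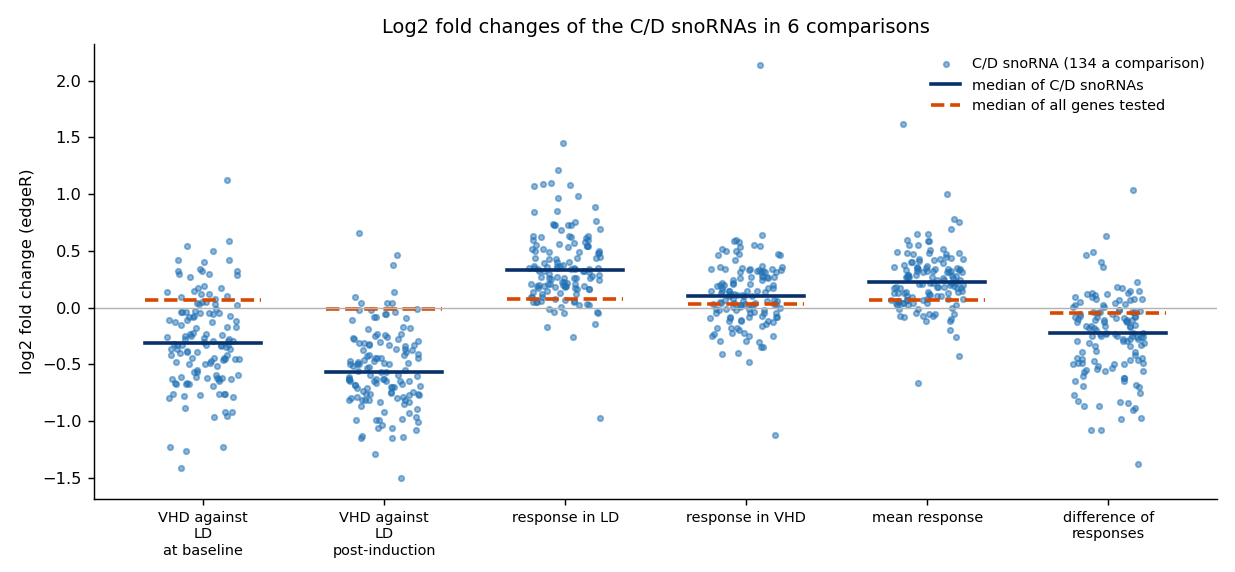
Log2 fold changes (edgeR) of the 134 tested C/D snoRNAs in each of the 6 comparisons, 1 point per member, with the median of the members (solid line) and of all 18373 genes tested (dashed line). The members' medians are -0.31, -0.57, 0.33, 0.10, 0.23 and -0.22 from left to right, and none of the points passes the adjusted threshold.

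Of the snoRNAs that take part in the processing of the ribosomal RNA precursor, SNORD13, SNORD22 on 2 identifiers and SNORD14 on 3 were tested. The list fixed for this class named SNORD14 with letters, so only the first 3 matched it, and SNORD3A and SNORD118 had no match by symbol. The SNORD14 members had mean responses of 0.27 ± 0.36 (ENSMMUG00000026596) and 0.02 ± 0.45 (ENSMMUG00000023942) in HSPA8 and -0.06 ± 0.40 (ENSMMUG00000025057) in RPS13. SNORD13, a guide for acetylation of the small-subunit RNA that has its own promoter in humans (chromosome 8, 33640604 to 33640708), had 1235, 1013 and 252 CPM in LD baseline and 911, 1142 and 377 CPM in LD post-induction. In VHD it had 598, 992 and 527 CPM at baseline and 435, 169 and 912 CPM post-induction. Animal LD 3 was the lowest of its class at both times, opposite to its C/D share, which was the highest of its class at both times. The more abundant SNORD22 (ENSMMUG00000024487), next to the SNORD26 to SNORD31 cluster, had 16.6 to 18.7 CPM in LD baseline and 23.8 to 27.6 CPM in LD post-induction. These ranges did not overlap, but like every other member it did not pass in the LD response. In VHD it had 20.5, 11.9 and 18.1 CPM and then 11.2, 14.4 and 37.2 CPM.

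The groups by genomic origin were mostly positive in value in the mean response, with a sign that rested on the scaling and on 1 library, and 0 of their members passed in any comparison (edgeR). In the mean response, values were positive for 8 of 8 tested DLK1-DIO3 members (median 0.32), 6 of 6 SNHG1 members (0.30), 4 of 4 RPL13A members (0.38), 12 of 13 members of other ribosomal protein genes (0.31), 2 of 2 GAS5 members (0.24) and 5 of 6 members of the SNRPN-UBE3A region (0.15). All 134 members gave 116 positive values and a median of 0.23. The 13 listed under other ribosomal protein genes include SNORD45A (0.37) and SNORD45B (0.31). Both lie in RABGGTB, which is not a ribosomal protein gene, and they stay in all counts and medians of that list. At baseline the VHD over LD values were negative for 8 of 8, 6 of 6, 4 of 4, 12 of 13, 1 of 2 and 6 of 6 in the same order, where all members gave 103 of 134. With factors over small RNA genes the mean response was positive for 6, 3, 3, 9, 1 and 1 of them, and the baseline values were negative for 7, 6, 2, 5, 1 and 5. Without VHD post-induction 3 the mean response was positive for 3, 1, 2, 7, 1 and 0, with medians of -0.06, -0.19, 0.00, 0.03, -0.02 and -0.42. With a term for the animal it was positive for 8, 5, 4, 11, 2 and 1.

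Without the 2 libraries set apart, the mean response was positive for all tested members of these groups, with medians from 0.27 (SNRPN-UBE3A) to 0.37 (RPL13A). The baseline values were then negative for 7 of 8 DLK1-DIO3 members (median -0.57), 4 of 6 SNHG1 members (-0.18), 3 of 4 RPL13A members (-0.16), 10 of 13 members of other ribosomal protein genes (-0.19), 2 of 2 GAS5 members (-0.21) and 6 of 6 members of the SNRPN-UBE3A region (-0.52). Several symbols of the lists carry a letter that the table lacks, so these counts cover only exact matches. The 13 members listed under other ribosomal protein genes again include SNORD45A and SNORD45B of RABGGTB.

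The RPL13A snoRNAs are known from work on lipid-induced stress, where loss of these RNAs changed the response of cells. In these livers SNORD35A had 95.3, 55.1 and 59.3 CPM in LD baseline and 86.4, 116 and 146 CPM in LD post-induction. In VHD it had 68.3, 83 and 47.6 CPM at baseline and 62.5, 44.7 and 124 CPM post-induction. The time points overlapped in both classes. SNORD116, whose loss is linked to Prader-Willi syndrome, was highest in LD post-induction 3 for its most abundant copy (ENSMMUG00000026582), with 152 CPM, and had 7.22 and 2.9 CPM in the 2 libraries set apart.

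Many snoRNAs and their host genes had mean responses of opposite sign in value, and this count depended on the scaling and on 1 library. Of the 142 members, 85 lie inside a named gene of the table on the same strand, in 46 hosts. A further 2 lie only in an unnamed gene, and 55 in none. In the mean response 36 of 46 hosts were negative with a median of -0.09, against 7826 of all 18373 genes and a median of 0.07. In 55 of the 82 tested pairs the snoRNA was positive and its host negative, in 2 the reverse. Without the 2 libraries set apart there were 65 such pairs and 2 of the reverse. The sign of the snoRNA depends on the scaling, and with factors over small RNA genes 22 pairs had a positive snoRNA and a negative host, 19 the reverse and 41 the same sign. Without VHD post-induction 3 the counts were 17, 19 and 46. Most members were positive and most hosts negative, so the count of opposite pairs by itself shows no link between a snoRNA and its own host. The difference in sign was not tested. A pair shares its libraries, and hosts with several snoRNAs enter several pairs.

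GNL3, the gene of the nucleolar protein nucleostemin and host of SNORD19B and SNORD69, was the only host that passed (log2 fold change of -1.48 ± 0.24, adjusted p of 0.0268 in edgeR). It was named after its values were seen. It fell in all 6 animals, from 52.3, 68.6 and 96.8 CPM to 30.8, 20.2 and 19.8 CPM in LD and from 66.9, 63.8 and 40.6 CPM to 20.8, 26.6 and 19.9 CPM in VHD. The values before and after did not overlap. Its snoRNAs had mean responses of 0.22 ± 0.73 (SNORD19B) and 0.48 ± 0.76 (SNORD69). SNORD69 had 1121, 515 and 1112 CPM in LD baseline and 784, 2380 and 1938 CPM in LD post-induction, and 1123, 1494 and 61.8 CPM in VHD baseline and 1004, 30 and 1763 CPM in VHD post-induction. The adjusted p of GNL3 was 0.0293 without the 2 libraries set apart and 5.27e-06 in DESeq2. It missed the threshold with a term for the animal (0.0989), with factors over small RNA genes (0.412) and without any of 7 single libraries (0.0608 to 0.0999), while its value stayed between -1.35 and -1.68 in all 18 alternatives.

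With GNL3, 7 of the 46 hosts had an unadjusted p under 0.05 in edgeR, against 7.91% of all genes. None of the other 6 passed. WDR43 had -1.26 ± 0.30 (adjusted p of 0.149), NOP58 had -1.44 ± 0.36 (0.167), PPAN had -1.48 ± 0.43 (0.271), EIF4A1 had -0.91 ± 0.28 (0.312) and NCL had -0.59 ± 0.20 (0.402), all in edgeR. The other was NOP56, the gene of a core protein of the particle. Without the 2 libraries set apart the values were -1.38 (WDR43), -1.52 (NOP58), -1.49 (PPAN), -1.13 (EIF4A1), -0.55 (NCL) and -1.19 (NOP56), and none passed, while GNL3 had -1.68 (adjusted p of 0.0293 in edgeR). In DESeq2, WDR43, NOP58 and NOP56 passed with GNL3 (adjusted p of 0.0127 for WDR43). DESeq2 also called more of all genes than edgeR did, with the counts given at the end. NCL was lower after the induction in all 6 animals, from 113, 139 and 176 CPM to 73.5, 83.9 and 102 CPM in LD and from 108, 123 and 147 CPM to 86.1, 89.1 and 98.6 CPM in VHD, without overlap. Its snoRNA SNORD82 had 0.17 ± 0.33. WDR43 was also lower in all 6 animals, while its SNORD53 and SNORD92 were the leading positive members.

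**Figure D5:**
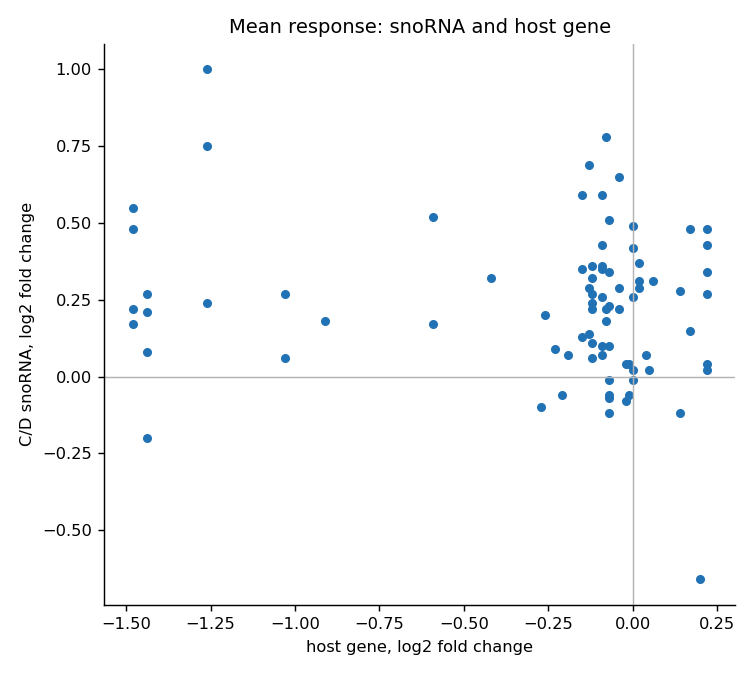
Mean response (log2 fold change, edgeR) of each tested C/D snoRNA against that of the host gene it lies in, 82 pairs in 46 hosts; hosts with several snoRNAs give several points on a vertical. The upper left region, snoRNA positive and host negative, holds 55 pairs, and the hosts farthest left, at -1.48, are GNL3 and PPAN.

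The RNAs that code for the proteins binding C/D snoRNAs were lower in value too, and protein was not measured. The genes of all 4 core proteins had negative mean responses, and none passed in edgeR. NOP56 had -1.03 ± 0.26 (adjusted p of 0.162) and was lower after the induction in all 6 animals, from 28, 25 and 38.7 CPM to 15.8, 9.63 and 10.6 CPM in LD and from 26.7, 27.1 and 16.4 CPM to 18.6, 15.5 and 8.84 CPM in VHD. NOP58 (-1.44 ± 0.36) was lower in 5 of 6. FBL, the gene of fibrillarin, had -0.22 ± 0.30, and SNU13 had -0.18 ± 0.20. NOP56 and NOP58 passed in DESeq2 (adjusted p of 0.0212 and 0.0156). The values of all 4 stayed negative without the 2 libraries set apart and with factors over small RNA genes, with medians of -0.82 and -0.59.

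Of 13 tested genes for factors of snoRNP assembly and snoRNA processing, 12 were negative and 1 positive in the mean response, with a median of -0.30. In edgeR 0 passed, while 4 had an unadjusted p under 0.05. All genes gave 7826 negative of 18373, and 7.91% at that level. The 4 were NUFIP1, a chaperone of particle assembly (-1.56 ± 0.38, adjusted p of 0.155), NOLC1, a nucleolar and Cajal body protein (-1.04 ± 0.23, 0.101), DBR1, the enzyme that opens intron lariats (-0.97 ± 0.22, 0.116), and RRP9, a protein of the U3 particle (-1.04 ± 0.35, 0.387). Without the 2 libraries set apart 12 of the 13 were again negative with a median of -0.48, and 0 passed. NUFIP1, NOLC1 and DBR1 were lower after the induction in all 6 animals. In DESeq2, which called more of all genes than edgeR, these 3 passed, with adjusted p of 0.0146 (NUFIP1), 0.00367 (NOLC1) and 0.00363 (DBR1).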

How the data were processed

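RNA of 12 liver libraries was counted per transcript and per mature miRNA. The deposited raw tables hold expected counts. Partek, BWA and Bowtie are named in the submitters' processing notes, with Mmul_8.0.1 as the build. Tool versions, the role of each tool and any use of strand in counting are not given in the sources at hand. For the 8 members that lie in a gene on the opposite strand, reads of the pair cannot be told apart if strand was not used. The 40611 transcripts were summed per Ensembl identifier and rounded, which gave 23993 identifiers, 8522 of them without a symbol in the reference names used here. Length is stop minus start, and a start may differ by 1 base because its counting base is not stated.

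Genes were filtered with filterByExpr by group, leaving 18373. Tests used edgeR 4.0.16 under R 4.3.3 (TMM factors, robust quasi-likelihood fit of 4 group means, Benjamini-Hochberg over all genes tested, threshold 0.05), after a check on simulated data. The SE is the size of the log2 fold change over the square root of F. DESeq2 1.42.0 and other factors, no filter, a term for the animal (for the replicate number in VHD against LD), and fits without libraries were alternatives. CPM is the TMM-scaled count, and log2 CPM used a prior count of 2. A host is the shortest named gene whose span holds the member on the same strand.

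Named members are the 8 highest by mean, and in each comparison the 3 with the smallest p in each direction, with processing and imprinted snoRNAs, hosts and core proteins. The host of 1 named member is not reported here. Library patterns, SNORD pairs of 1 host, GNL3 and the hosts beside it were picked after their values were seen. The members and lists were chosen with earlier results of these data known. The numbers in the titles pair the 2 libraries of an animal. The correlation of their deviations from the group means ran from -0.35 to 0.41 over the 6 animals. Each library is 1 biopsy of an animal. No snoRNA sequences are printed, since none were in the files used here. Intervals for single shares are not given, because reads without molecular identifiers are not independent molecules.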

Additional observations from a re-analysis of the deposited data

How the results depend on the processing

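The count of C/D snoRNAs past the threshold was 0 in all 6 comparisons under each of 18 alternatives, the replicate block included. This block paired the libraries of an animal in the comparisons of responses. In VHD against LD it was a term for the replicate number, which LD and VHD animals share by label only. Of 648 values of the named members under the alternatives, 632 kept their sign and 0 passed. These values were picked by smallest p in the first edgeR fit, and the alternatives reuse most or all of its libraries. Kept signs were thus favoured by the choice and say little on how stable the members are. Over all 134 tested members, 116 positive mean responses became 61 with factors over small RNA genes. With the replicate block SNORD36 (ENSMMUG00000044156) and SNORD126 turned to -0.66 and -0.31 in the difference of responses. Without VHD post-induction 3 they turned to -3.79 and -1.14 there, SNORD126 to -0.87 in VHD against LD post-induction, and SNORD36, SNORD15 (ENSMMUG00000026536) and SNORD95 to -2.74, -0.24 and -0.32 in the VHD response. SNORD36 was also -2.11 without LD baseline 2. SNORD88A was -0.25 at baseline without VHD baseline 3, with or without VHD post-induction 2. SNORD11 post-induction was -0.07 without VHD post-induction 2 and -0.08 without both of these libraries. SNORD11 in the LD response was 0.02 without LD baseline 3, SNORD72 in the mean response was 0.08 without VHD baseline 2, and SNORD125 in the difference was -0.60 without VHD post-induction 2. Over the fits without single libraries these values ran from -0.25 to 0.78 (SNORD88A), -0.87 to 1.12 and -1.14 to 0.82 (SNORD126, post-induction and difference), -0.07 to 0.76 and -0.66 to 0.02 (SNORD11, post-induction and LD response), -2.74 to 2.72 and -3.79 to 3.24 (SNORD36, VHD response and difference), -0.24 to 0.71 (SNORD15), -0.32 to 1.05 (SNORD95), -0.62 to 0.08 (SNORD72) and -0.60 to 1.26 (SNORD125). The cause was not tested.

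Over all genes, the mean response had 49 calls in edgeR (3 higher, 46 lower), 266 in DESeq2, 18 with factors over small RNA genes and 4 with the replicate block. The range without single libraries was 0 to 81. Members under a few CPM rest on few counts, and differences at that level were not detectable here.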
